A study of Mus musculus with 7 samples.

Results

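Urothelium is the lining of the renal pelvis, ureter and bladder, and 10 of its genes were followed here through RNA sequencing of mouse kidney. They are 4 uroplakins (Upk1a, Upk1b, Upk2 and Upk3a), 4 keratins (Krt5, Krt7, Krt15 and Krt19), the surface protein gene Psca and the transcription factor gene Foxq1. The genes were taken by symbol from the deposited expression table, where each of the 10 names matched 1 gene, out of 48709 Ensembl genes counted. The set was chosen by results already known for these libraries, among them a lower level of Krt15 in the knockout kidneys, so that difference is among the values that selected it. The comparison of genotypes is therefore given for these 10 genes as a description, with no test. All 10 passed the filter on low counts that left 15394 genes for testing.

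The libraries came from kidneys of male mice. Per the labels, 3 are wild type (WT, numbered 1, 2 and 4), and 4 are labelled as lacking both Hs3st3a1 and Hs3st3b1 (double knockout, DKO, numbered 1 to 4). The labels do not give the extent of either deletion. These genes encode a pair of enzymes that add a 3-O-sulfate to heparan sulfate. The sources used here give neither age nor strain, nor how much pelvis and ureter stayed with the kidney.

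Uroplakins are membrane proteins that pack into rigid plaques on the luminal face of umbrella cells, the top layer of the urothelium. The tetraspanins made from Upk1a and Upk1b leave the endoplasmic reticulum as pairs, Upk1a with Upk2 and Upk1b with Upk3a. Keratins also work in pairs of a type II and a type I chain: Krt5 and Krt7 are type II, Krt15 and Krt19 are type I. Krt5 and Krt15, like Krt14 and Krt17, mark basal cells of layered epithelia, whereas Krt7 and Krt19 are made in simple epithelia as well, including collecting ducts. A whole kidney holds little urothelium. In bulk tissue, fewer cells of a type and less RNA per cell cannot be told apart.

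Total gene counts were between 18330833 and 24259231 per library. Hs3st3a1, a check of the genotype labels, had 29, 13 and 12 reads for WT and 1, 0, 0 and 3 for DKO. Values are listed in this order of libraries throughout, WT 1, 2 and 4 and then DKO 1 to 4. Hs3st3b1, the other targeted gene, had 56, 90 and 112 reads for WT and 33, 106, 65 and 108 for DKO, so the groups overlapped and this gene count does not separate the labelled genotypes. The log2 fold change of Hs3st3b1 was -0.23 (SE 0.39, with an adjusted p of 0.755 by edgeR). Counts per gene do not show which exons the reads fall in. A row of the count table named for a neo transgene had 0 reads in each WT library and 73, 75, 81 and 125 in DKO 1 to 4, which does separate the labelled groups. Markers of the nephron were abundant in every library, with Umod, which encodes uromodulin, at 6412 ± 1647 CPM for WT and 3991 ± 994 CPM for DKO. CPM are raw counts scaled to a common library size, with TMM factors for composition, and ± is the SD over 3 WT or 4 DKO libraries throughout. Across all 15394 genes, edgeR's quasi-likelihood test called 0 at an adjusted p of 0.05, while 3250 genes (21.1%) had an unadjusted p under 0.05. DESeq2 called 672, which is 4.37% of the 15394. It gave an adjusted p for 9125 genes and none for 6269. The median log2 fold change of all genes tested was 0.04.

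Per length, the uroplakins differed widely from each other. Levels per length are CPM per kilobase (kb) of merged exons, averaged over all 7 libraries. Upk3a stood at 22.4, Upk1a at 9.13, Upk1b at 4.58 and Upk2 at 1.003 CPM per kb. Psca, which encodes a glycolipid-anchored protein of the Ly6 family, was the most abundant of the 10 at 77.0 CPM per kb, and Krt7 was next at 22.6. Krt15 (1.72), Krt19 (1.56), Krt5 (0.416) and Foxq1 (0.305) were scarce. In that order of levels, the ranges over libraries of Psca and Krt7, and of Upk3a and Upk1a, did not overlap, and those of the other neighbours did. The value for Krt7 depends on the length used: its merged exons span 7049 nucleotides, and on its 4094-nucleotide coding transcript it was 38.8 CPM per kb. The value for Foxq1 may depend on how reads were counted over 3200 of its 4843 nucleotides, which a gene on the opposite strand shares. That handling is not known.

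**Figure D1:**
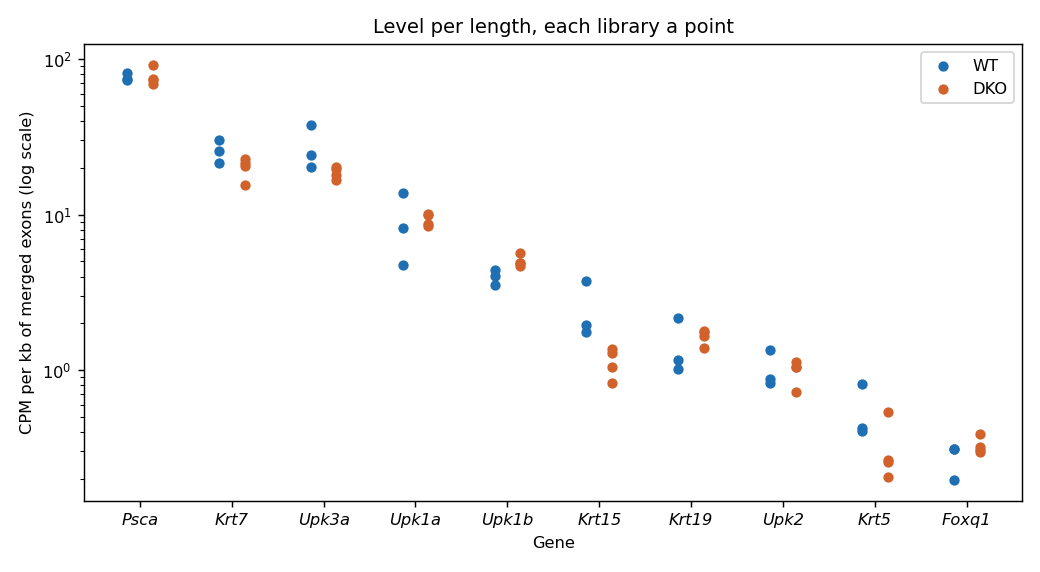
Level of each urothelial gene per length, in CPM per kb of merged exons on a log axis, with 1 point per library (WT blue, DKO orange). Psca lies highest, and Upk3a exceeds Upk2 by 14.7-fold to 29.1-fold in the 7 libraries.

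Upk3a, whose product is the partner of the Upk1b protein, lies at chr15:85017141-85022547 on the plus strand (GRCm38, 6 exons). It was at 41.2, 22.2 and 26.4 CPM for WT replicates 1, 2 and 4 and at 22.2, 21.4, 18.3 and 19.7 CPM for DKO replicates 1 to 4. Every DKO library was below every WT library, but DKO replicate 1 (22.16 CPM) and WT replicate 2 (22.21 CPM) were within counting error, and with plain total counts the groups overlapped. The means were 29.9 ± 9.99 CPM for WT (SD, n = 3) and 20.4 ± 1.73 CPM for DKO (SD, n = 4), a log2 fold change of -0.55 (SE 0.21). WT replicate 1 carried much of that difference, and without it the log2 fold change was -0.27.

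Upk1b (chr16:38773184-38800328, minus strand, 8 merged exons) showed the opposite arrangement. It was at 9.23, 7.40 and 8.37 CPM for WT and at 11.9, 9.76, 10.1 and 10.2 CPM for DKO. All DKO libraries lay above all WT libraries, also with plain total counts. The exact 95% binomial interval of the lowest DKO library (8.41 to 11.3 CPM) overlapped that of the highest WT library (7.92 to 10.7 CPM). The means were 8.33 ± 0.913 CPM for WT and 10.5 ± 0.966 CPM for DKO, a log2 fold change of 0.33 (SE 0.17), between 0.24 and 0.39 with each library left out in turn. The ratio of Upk3a to Upk1b per kb was 8.54, 5.73 and 6.03 in WT and 3.55, 4.18, 3.45 and 3.72 in DKO. Since Upk3a was lower and Upk1b higher in every DKO library, this ratio had to separate the groups and adds no separate observation.

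Upk1a (chr7:30603092-30612847, minus strand, 8 exons) varied most among the WT animals. Its level was 19.7, 6.77 and 11.6 CPM for WT and 14.4, 14.1, 12.3 and 11.9 CPM for DKO. The DKO libraries fell inside the WT range, and the means were 12.7 ± 6.53 CPM for WT and 13.2 ± 1.23 CPM for DKO. The log2 fold change of 0.05 (SE 0.29) changed sign without WT replicate 2 (-0.25). Upk2, which encodes the partner of the Upk1a protein, lies at chr9:44452715-44454976 on the minus strand (5 exons). It received only 28, 18 and 19 reads for WT and 26, 15, 24 and 28 reads for DKO. These were 1.45, 0.952 and 0.898 CPM for WT and 1.14, 0.787, 1.23 and 1.14 CPM for DKO, and the groups overlapped. The spread of Upk2 counts over the 7 libraries was 0.906 times what counting error alone gives, so no difference between kidneys was detectable at this depth. For Upk1a the same ratio was 22.4 and for Upk3a 49.3. Per kb, Upk1a exceeded its partner Upk2 by 5.42-fold to 13.6-fold in the 7 libraries.

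**Figure D2:**
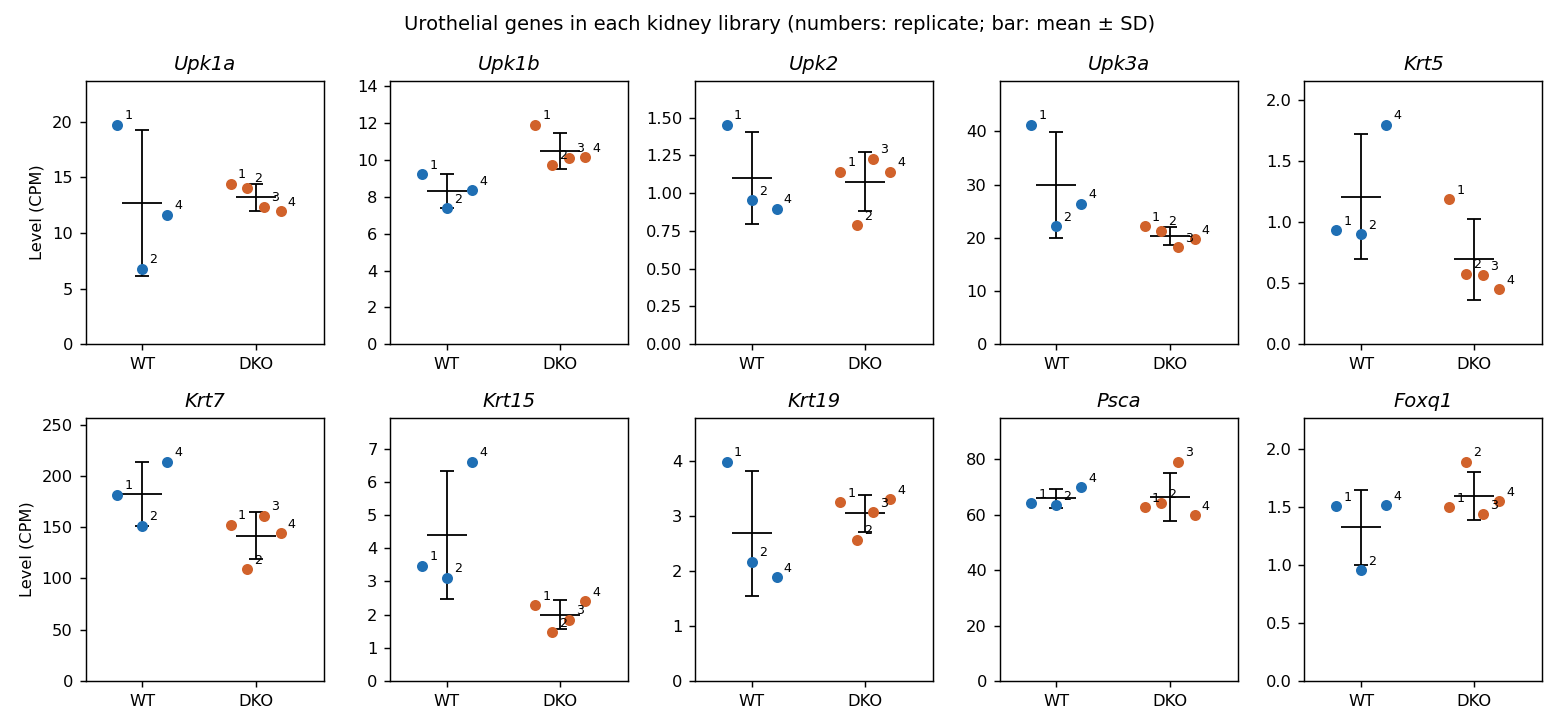
CPM of each of the 10 genes in WT (blue) and DKO (orange) libraries, with the replicate number beside each point and bars for the mean ± SD of 3 WT and 4 DKO libraries. Krt15 and Upk3a lie lower and Upk1b higher in every DKO library, and the WT points of Upk1a run from 6.77 to 19.7 CPM.

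The sequences before the start sites of Upk1a and Upk3a are shown because these are the uroplakins with a window in the RefSeq table used here, and they had the widest spread of the 4 among WT animals. Each run is the 250 bases before the RefSeq start site on GRCm38.p6, 5′ to 3′ on the strand of the gene. For Upk1a that site lies inside the gene span given above, which is from GENCODE M21, so part of its window is within that span. Capitals mark matches on either strand to 3 motifs searched. These were TATAAA, which places the start of transcription, AGATAA, bound by factors of the family of Gata3, and CCACCC, bound by Krüppel-like factors.
Upk1a, chr7:30612735-30612984, minus strand: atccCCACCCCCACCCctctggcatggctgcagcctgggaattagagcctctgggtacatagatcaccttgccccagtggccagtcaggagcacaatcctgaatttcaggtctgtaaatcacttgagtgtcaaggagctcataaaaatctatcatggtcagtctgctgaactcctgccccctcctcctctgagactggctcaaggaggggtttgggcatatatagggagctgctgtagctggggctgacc
Upk3a, chr15:85016891-85017140, plus strand: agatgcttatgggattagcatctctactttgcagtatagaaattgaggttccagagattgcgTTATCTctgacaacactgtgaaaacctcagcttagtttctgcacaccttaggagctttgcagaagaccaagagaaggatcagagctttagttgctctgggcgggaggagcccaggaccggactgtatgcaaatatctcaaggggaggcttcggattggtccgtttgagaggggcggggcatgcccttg
The Upk1a window held 2 matches to CCACCC side by side, and the Upk3a window held 1 match to AGATAA, on the opposite strand. Over 32851 RefSeq windows of the same length, 28.1% held CCACCC and 12.4% held TATAAA, and 3281 windows held AGATAA. Windows of Krt5 and Krt7, the other genes of the set in the RefSeq table, held no match to these motifs. The Krt7 window lies wholly inside the GENCODE span of its gene.

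Krt15 had the lowest log2 fold change of the 10 genes. It lies at chr11:100131758-100135928 on the minus strand (ENSMUSG00000054146, 8 merged exons). Reads numbered 67, 59 and 140 in WT and 52, 28, 36 and 59 in DKO. Levels were 3.47, 3.12 and 6.62 CPM for WT and 2.29, 1.47, 1.84 and 2.41 CPM for DKO. Every DKO library was below every WT library, and WT replicate 4 stood apart from the other WT libraries. The exact 95% binomial interval of the highest DKO library (1.83 to 3.10 CPM) reached into that of the lowest WT library (2.37 to 4.02 CPM). Such intervals cover counting error only. Group means were 4.403 ± 1.93 CPM for WT and 2.001 ± 0.429 CPM for DKO. The log2 fold change was -1.13 (SE 0.32), a ratio of 0.456, and it was -0.72 without WT replicate 4.

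Its basal type II companion Krt5 (chr15:101707070-101712898, minus strand, 9 exons) was scarcer. Krt5 received 18, 17 and 38 reads for WT and 27, 11, 11 and 11 reads for DKO. That was 0.933, 0.899 and 1.80 CPM for WT and 1.19, 0.577, 0.563 and 0.448 CPM for DKO, so DKO replicate 1 lay within the WT range and the other DKO libraries below it. WT replicate 4 was again the highest library. The log2 fold change was -0.80 (SE 0.45), -0.40 without WT replicate 4 and -1.20 without DKO replicate 1. Basal keratins outside the set were near the floor of detection and did not pass the low-count filter. Krt14 had 8, 13 and 24 reads for WT and 6, 2, 5 and 12 in DKO, and Krt17 had 11, 1 and 3 reads for WT and 1, 0, 0 and 0 in DKO. Summed over Krt5, Krt14, Krt15 and Krt17, the basal keratins were at 5.39, 4.76 and 9.69 CPM for WT and 3.78, 2.15, 2.66 and 3.34 CPM for DKO, a ratio of mean levels of 0.451. Krt15, by which the set was chosen, made up 4.403 of 6.61 CPM on average for WT and 2.001 of 2.98 CPM for DKO, so this ratio largely restates that of Krt15. Trp63, a transcription factor of basal cells, lay the other way in its mean, at 0.564 ± 0.351 CPM for WT and 0.892 ± 0.259 CPM for DKO (edgeR adjusted p = 0.481, log2 fold change 0.64, SE 0.51).

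Keratin genes are close relatives, and the stretches of Krt15 and Krt19 below are shown because reads lying wholly inside them may not be assignable to 1 gene. A run shorter than a read cannot hold a whole read, and read length was not considered here. The sources used here do not say how reads with several matches were counted. Each is the longest run of identical coding bases of the gene and 1 relative, 5′ to 3′, from GENCODE M21.
Krt15 and Krt25, 59 bases in exon 1, chr11:100135515-100135573: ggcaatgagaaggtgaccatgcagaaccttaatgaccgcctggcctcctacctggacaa
Krt15 and Krt17, 50 bases in exon 1, chr11:100135448-100135497: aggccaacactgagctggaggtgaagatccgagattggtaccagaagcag
Krt19 and Krt17, 35 bases in exons 5 to 6, chr11:100141163-100141309: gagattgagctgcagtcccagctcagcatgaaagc
Krt5, with only 11 to 38 reads per library, has longer runs shared with relatives, so the same limit bears on it more. The relatives with its longest shared runs had at most 1 read in any library. The relatives of Krt15 and Krt19 had few reads too. Krt25 had at most 8 reads in any library and Krt17 at most 11. The run of Krt19 is also in Krt42, which had at most 2 reads. The best local alignment of Krt15 with Krt13 was 82.3% identical over 1054 nucleotides.

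Krt7 (chr15:101411043-101430313, plus strand, 11 merged exons), the most abundant keratin of the set, was at 181, 151 and 214 CPM for WT and 152, 109, 161 and 144 CPM for DKO. WT replicate 4 was highest and DKO replicate 2 lowest, as for Krt15, but the groups overlapped. The means were 182 ± 31.3 CPM for WT and 142 ± 23.0 CPM for DKO, with a log2 fold change of -0.36 (SE 0.18). Krt19 (chr11:100140810-100148665, minus strand, 8 merged exons), a type I keratin, had another order of libraries. It was at 3.99, 2.17 and 1.89 CPM for WT and at 3.25, 2.57, 3.07 and 3.30 CPM for DKO. WT replicate 4, which was highest for Krt5, Krt7 and Krt15, was the lowest library for Krt19. The log2 fold change of 0.19 (SE 0.30) was 0.57 without WT replicate 1 and -0.02 without WT replicate 4.

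Psca (chr15:74714839-74717069, plus strand, 3 exons) varied least. It was at 64.2, 63.6 and 70.0 CPM for WT and at 62.8, 64.1, 79.2 and 59.8 CPM for DKO. The 7 libraries lay between 59.8 and 79.2 CPM, and the groups overlapped (log2 fold change 0.01, SE 0.15). Foxq1, a forkhead transcription factor gene (chr13:31556134-31560976, plus strand, 1 exon), was at 1.504, 0.952 and 1.51 CPM for WT and 1.49, 1.89, 1.43 and 1.55 CPM for DKO, also overlapping. Its spread over libraries was 0.975 times counting error. Of its 4843 exonic nucleotides, 3200 are shared with A530084C06Rik on the opposite strand, and the library kit does not mark strand, so reads of the pair cannot be told apart there.

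**Figure D3:**
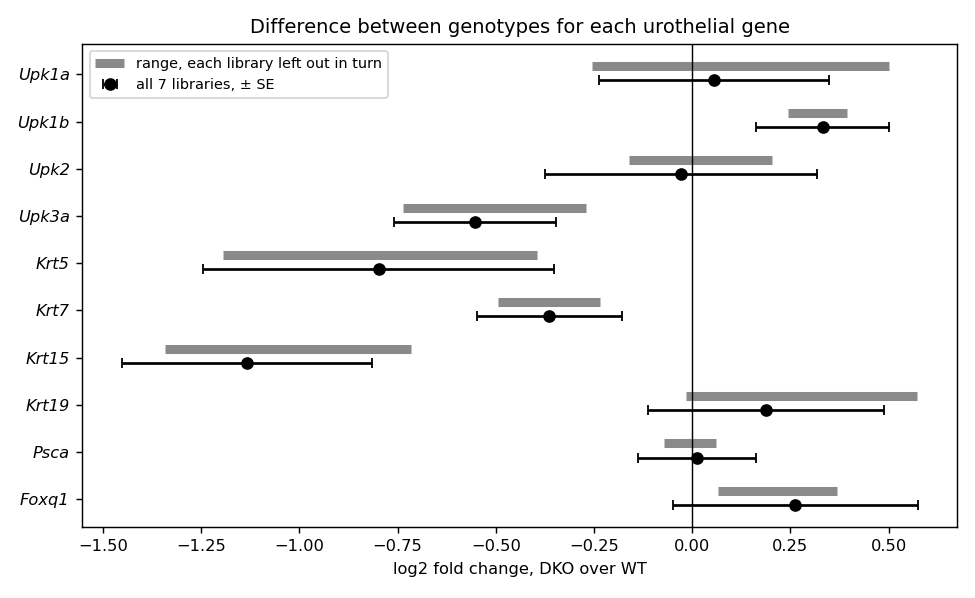
Log2 fold change of DKO over WT for each of the 10 genes, with all 7 libraries (points, bars ± SE) and as the range when each library is left out in turn (grey). The values of Krt15, Krt5, Upk3a and Krt7 stay below 0 and those of Upk1b and Foxq1 above 0 in these fits, while Upk1a, Upk2, Krt19 and Psca cross 0.

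Across the set, 5 genes had a positive and 5 a negative log2 fold change, with a median of -0.01. By edgeR, 0 of the 10 were called, against 0% of all genes. Unadjusted, 2 of 10 were under 0.05, against 21.1% of all genes. Groups did not overlap for 3 of 10, Upk1b being higher and Krt15 and Upk3a lower in DKO, against 8.34% of all genes higher and 9.04% lower. As the genotype comparison was used in choosing the set, nothing is read from these counts.

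The 10 genes did not share 1 order of libraries. WT replicate 1 was the highest of the 7 libraries for 4 genes (Upk1a, Upk2, Upk3a and Krt19), and WT replicate 4 for 3 (Krt5, Krt7 and Krt15). WT replicate 2 was the lowest for 3 genes (Upk1a, Upk1b and Foxq1), and DKO replicate 2 for 3 (Upk2, Krt7 and Krt15). The summed uroplakin level was 71.6, 37.3 and 47.3 CPM for WT and 49.6, 46.0, 42.0 and 43.0 CPM for DKO, so WT held both the highest and the lowest library. The coefficient of variation was 51.4% among WT and 9.34% among DKO libraries for Upk1a, and 33.4% and 8.48% for Upk3a. For Krt5 it was 42.0% and 48.1%.

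**Figure D4:**
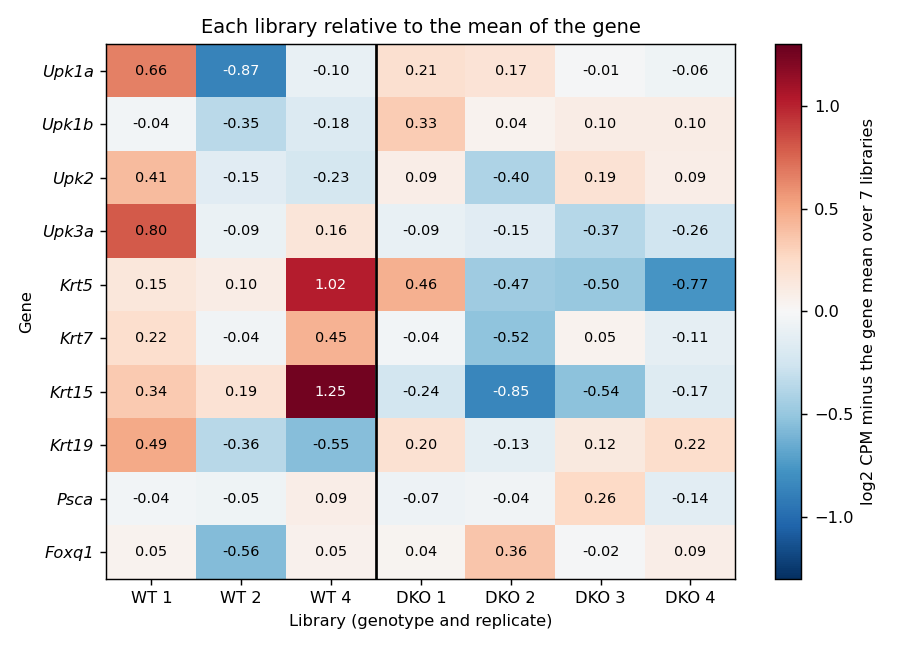
Log2 CPM of each gene in each library minus the mean of that gene over the 7 libraries, with blue below and red above the mean and a line between WT and DKO. WT 1 is high for Upk1a (0.66) and Upk3a (0.80), and WT 4 for Krt5 (1.02) and Krt15 (1.25) but low for Krt19 (-0.55).

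Genes with the nearest pattern were found by the root mean square (RMS) difference of centred log2 CPM over the 7 libraries, among 8932 other genes with an SD of at least 0.3. For Krt15 they were Pfdn1 (a prefoldin subunit, RMS difference 0.08), H3f3a (histone H3.3, 0.09), Gm10109 (0.11), Cebpzos (0.11) and the ribosomal protein genes Rps7 (0.12) and Rpl31 (0.12). The pattern of Krt15 itself had an SD of 0.69. Each of these 6 was highest in WT replicate 4, as Krt15 was. They were chosen for nearness to Krt15, so the shared maximum adds no separate observation. Pfdn1, for example, was at 188, 164 and 315 CPM for WT and 123, 87.3, 92.8 and 122 CPM for DKO. The other genes of the set were farther away. The 6 were taken as the nearest of 8932 candidates, so this contrast was nearly fixed by the choice. Krt5 differed from Krt15 by 0.40, with 1383 other genes nearer, and Krt7 by 0.41, with 1535 nearer. Krt5 had 11 to 38 reads per library, so counting error enters its difference, and that part was not computed. Upk3a differed from Krt15 by 0.54, with 2529 nearer. For the mean of the 4 uroplakins (SD 0.25) the nearest were Gm26809, Ptgis (prostacyclin synthase), Tifab, Gsdmd (gasdermin D), Slc25a29 and Mterf1a, with RMS differences of 0.12 to 0.16. Krt19, at 0.21 with 31 genes nearer, was the nearest of the other genes of the set, and Krt15 was the farthest at 0.67.

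**Figure D5:**
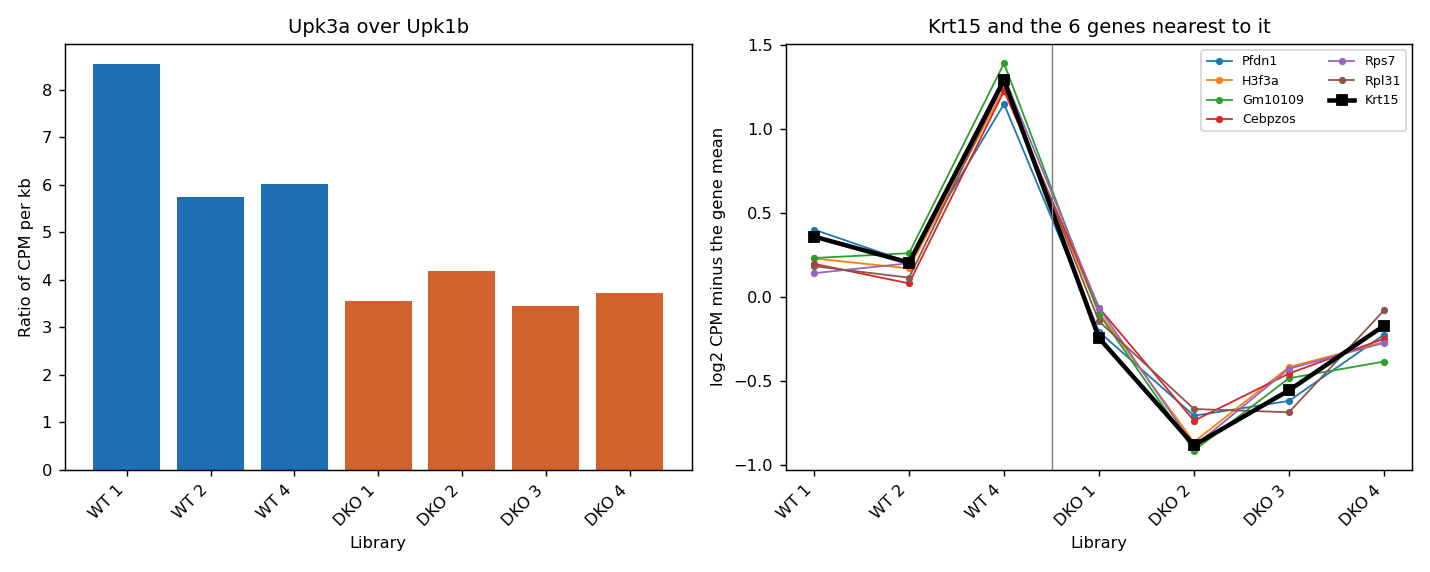
Left, the ratio of Upk3a to Upk1b in CPM per kb in each library (WT blue, DKO orange), 5.73 or above in WT and 4.18 or below in DKO. Right, log2 CPM of Krt15 (black) and the 6 genes nearest to it, each minus its mean over the 7 libraries, with the maximum in WT 4.

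A further 42 urothelial genes were listed, of which 29 passed the low-count filter. By edgeR 0 of the 29 were called in either direction (lowest adjusted p = 0.169), against 0 of all 15394 genes. Of the 29, 5 had an unadjusted p under 0.05, against 21.1% of all genes. Groups did not overlap for 1 gene higher and 1 lower in DKO, against 8.34% and 9.04% of all genes. The log2 fold change was positive for 17 and negative for 12, with a median of 0.06. Of all genes tested it was positive for 8195 and negative for 7199, with a median of 0.04. Among the other uroplakins, Upk3b, which mesothelium also makes, was at 10.6 ± 2.54 CPM for WT and 9.92 ± 1.92 CPM for DKO (edgeR adjusted p = 0.818, log2 fold change -0.10, SE 0.21). Of 8 other keratins 3 were tested and all 3 had a positive log2 fold change. The abundant simple epithelial pair was at 97.0 ± 6.49 CPM for WT and 99.8 ± 22.3 CPM for DKO for Krt18, and at 40.6 ± 3.68 and 42.2 ± 4.94 CPM for Krt8.

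Of 15 urothelial transcription factors 12 were tested, 11 with a positive log2 fold change and 0 called (median 0.37). Gata3 was at 62.9 ± 2.79 CPM for WT and 77.3 ± 9.40 CPM for DKO (log2 fold change 0.30, edgeR adjusted p = 0.277). Ehf was the one factor without overlap, at 17.8, 16.2 and 15.8 CPM for WT and 21.8, 21.3, 50.1 and 23.6 CPM for DKO (edgeR adjusted p = 0.181). Of 17 surface, junction and signalling genes 13 were tested, 10 with a negative log2 fold change and 0 called (median -0.40). Mal was at 215 ± 21.1 CPM for WT and 168 ± 35.6 CPM for DKO, and Perp, a desmosome-associated protein gene, at 75.8 ± 8.99 and 69.0 ± 10.9 CPM. Cldn7, a tight junction gene named after its values were seen, did not overlap, with a log2 fold change of -0.50 (SE 0.18, edgeR adjusted p = 0.178). Many genes of these lists are also made by collecting duct cells.

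Other tissues at the pelvis and surface of the kidney were measured beside these genes, and their part in the differences was not tested. Collecting duct and papilla genes (11 of 12 tested, 0 called, median log2 fold change -0.04) summed to 1379 to 2229 CPM for WT and 1407 to 3077 CPM for DKO, overlapping. WT replicate 4, the highest library for Krt7 and Krt15, had the highest WT sum (2229 CPM). DKO replicates 3 and 4 had higher sums, 3077 and 2447 CPM. DKO replicate 2, the lowest library for both genes, was at 2039 CPM, above WT replicates 1 and 2. The order of these sums depends heavily on Slc5a3, the inositol carrier of hypertonic tissue. Slc5a3 alone made up 657, 528 and 1023 CPM for WT and 431, 1171, 1504 and 1315 CPM for DKO. Sums without it were not computed. In that list Slc5a3 was at 736 ± 256 CPM for WT and 1105 ± 470 CPM for DKO. Aqp2, the water channel of principal cells, was at 344 ± 73.7 and 462 ± 167 CPM. Other genes of the list lay the other way, 6 of the 11 tested having a negative log2 fold change. Fxyd4, a regulator of the sodium pump named after its values were seen, was lower in every DKO library, at 54.1 ± 12.2 CPM for WT and 38.0 ± 4.19 CPM for DKO (edgeR adjusted p = 0.169). Smooth muscle genes (9 of 10 tested, 0 called, median 0.21) summed to 169 to 207 CPM for WT and 167 to 243 CPM for DKO. Acta2 was at 96.4 ± 8.32 and 113 ± 24.6 CPM, and Tagln at 51.6 ± 11.5 and 40.3 ± 9.08 CPM. Myh11 and Smtn, which encode smooth muscle myosin and smoothelin and were named after their values were seen, were higher in every DKO library. Of all genes tested, 8.34% were higher and 9.04% lower in DKO with no overlap. Myh11 was at 10.5 ± 1.80 and 17.7 ± 3.22 CPM (edgeR adjusted p = 0.163), and Smtn at 13.97 ± 1.06 and 18.3 ± 1.96 CPM (edgeR adjusted p = 0.201). Tbx18, a marker of ureteric mesenchyme, did not pass the filter, at 0.101 ± 0.0516 CPM for WT and 0.1005 ± 0.0603 CPM for DKO. Mesothelial genes (5 of 8 tested, 0 called, median 0.14) summed to 66.4 to 117 CPM for WT and 87.8 to 133 CPM for DKO, led by Gpm6a and Cldn15. Msln, the defining mesothelial gene of that list, was at 2.47 ± 0.566 CPM for WT and 2.72 ± 0.484 CPM for DKO.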

How the data were processed

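RNA of 3 WT and 4 DKO male mouse kidneys was sequenced with an unstranded tagmentation kit, per the labels' protocols. Libraries carry different animal numbers in their titles and were treated as 1 animal each. Reads were aligned with STAR 2.5.2a, per the submitters' processing notes, which also name edgeR, limma and DESeq2 and the builds GRCm38 (mm10) and GRCh38. The sources used here name no read counter, annotation release or strand setting. The authors deposited raw counts per Ensembl gene, a filtered copy of those counts, not used here, and a TMM-scaled CPM signal table, used here only for gene symbols and as a check (CPM computed here were 0.994 to 1.005 times its values).

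DKO was compared with WT by edgeR 4.0.16 (R 4.3.3) on the raw counts, with TMM scaling, filterByExpr (minimum count 10, minimum total 15), a robust quasi-likelihood F test and Benjamini-Hochberg adjustment over all 15394 genes. Standard errors come from the F statistic. DESeq2 1.42.0 and limma 3.58.1 (voom) were alternatives. Rows that name no Ensembl gene, at most 6.97e-04% of a library, were left out. The tests were tested on simulated data. Log2 CPM for patterns used a prior count of 2. Positions and lengths came from GENCODE M21 (GRCm38), promoters from RefSeq (GRCm38.p6, 4 of the 10 genes matched). The members and lists were chosen with earlier results of these data known. Named from each list were members past the threshold, otherwise the 2 with the highest mean CPM. Nearest patterns were the 6 genes with the smallest RMS difference. Genes outside this rule were named after their values were seen: Krt14, Krt17, Trp63, Msln, Tbx18 and those so marked in the text. A list gene and a shared stretch of sequence are not reported here.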

Additional observations from a re-analysis of the deposited data

How the results depend on the processing

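The count of genes called by edgeR was 0 with all libraries, 66 with no low-count filter, 672 with DESeq2, and 0 to 7 with each library left out in turn (7 without DKO replicate 1, 1 without WT replicate 2). Genes at an unadjusted p under 0.05 numbered 3250, and 1582 to 3796 with each library left out, the lowest counts being 1582 without WT replicate 4 and 2075 without DKO replicate 2. Of the 10 urothelial genes 0 were called in the edgeR fits. By DESeq2 0 of the 5 with an adjusted p were called, against 672 of all 9125 genes with one. The genotype comparison was used in choosing these 10 genes, so nothing is read from how many were called. Krt5, Krt15, Krt19, Upk2 and Foxq1 had no adjusted p by DESeq2. The log2 fold changes of Krt15, Krt5, Krt7, Upk3a, Upk1b and Foxq1 had the same sign in every alternative run, Krt15 between -1.34 and -0.72. Upk1a turned from 0.05 to -0.25 without WT replicate 2 and -0.0078 without WT replicate 4, and was 0.50 without WT replicate 1. Upk2 turned from -0.03 to 0.20 without WT replicate 1, 0.09 without DKO replicate 2 and 0.26 after removing a trend with length and GC content, and its lowest value was -0.16, without WT replicate 4. Krt19 turned from 0.19 to -0.015 without WT replicate 4 and was 0.57 without WT replicate 1. Psca, at 0.01, turned to -0.0066 with RLE scaling, -0.0068 with DESeq2, -0.02 without WT replicate 1 or WT replicate 2, -0.071 without DKO replicate 3 and -0.071 with the replicate block, which uses the same 6 libraries. Psca was 0.059 without DKO replicate 4 and 0.35 after the length and GC trend was removed. The cause of these turns was not tested. With plain total counts, a choice added after seeing the data, 2 of the 10 genes did not overlap between groups instead of 3. Upk3a was the one lost. The share of all genes without overlap was not computed with plain total counts, so nothing is read from this count. The order of the libraries by uroplakin level was the same with plain total counts. Lengths of coding transcripts were also added after seeing the data, and so was the fit of those 6 libraries with no block, which is the fit without DKO replicate 3. Deviations from the group means correlated at -0.133, 0.164 and 0.135 across genes for the equal replicate numbers 1, 2 and 4. Unequal numbers gave values from -0.229 to 0.162. With so few libraries these values cannot decide whether equal numbers mark paired samples. With the replicate block 0 genes were called and 2315 had an unadjusted p under 0.05. Depth limits Upk2, Krt5 and Foxq1, with 11 to 38 reads per library.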

Other observations

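Genes of fat around the kidney hilum varied more between animals than the uroplakins did. Summed over 6 genes, all tested and 0 called by edgeR (lowest adjusted p = 0.398), they were at 737, 202 and 638 CPM for WT replicates 1, 2 and 4 and at 921, 446, 354 and 376 CPM for DKO replicates 1 to 4. The most abundant were Cfd, which encodes the complement factor adipsin, at 372 ± 237 CPM for WT and 397 ± 250 CPM for DKO, and Adipoq, which encodes adiponectin, at 54.8 ± 29.7 and 52.6 ± 19.6 CPM. WT replicate 2, the lowest library for fat genes, was also the lowest for summed uroplakins (37.3 CPM), and their relation was not tested.

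Adrenal cortex genes were nearly absent: 1 of 6, Star, passed the filter (2.22 ± 0.976 CPM for WT, 2.92 ± 1.02 CPM for DKO, edgeR adjusted p = 0.562), and Cyp11a1, the next by level, was at 0.0518 ± 0.0898 and 0.0819 ± 0.0427 CPM. Cyp11b2 and Cyp21a1 had no reads. Genes of injured tubules, a list that shares Krt8, Krt18 and Krt20 with the urothelial one, were all tested with 0 of 10 called (median log2 fold change 0.09, lowest adjusted p = 0.492). Spp1, which encodes osteopontin, was at 2347 ± 99.0 CPM for WT and 2568 ± 346 CPM for DKO. Krt20, which marks umbrella cells as well as injured tubules and is named after its values were seen, was at 1.40, 0.476 and 0.709 CPM for WT and at 2.68, 0.472, 0.461 and 1.84 CPM for DKO, with libraries of both groups at the low end. Over the 10 nephron genes, 0 were called (lowest adjusted p = 0.164), and Umod and Slc34a1 were the most abundant, the latter at 3198 ± 191 CPM for WT and 4550 ± 361 CPM for DKO.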
